A study of Homo sapiens with 6 samples.

Results

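The genes for 8 primary granule proteins of promyelocytes, MPO, ELANE, PRTN3, AZU1, CTSG, SRGN, LYZ and BPI, were looked up by symbol in a gene expression table of NB4 cells, a human acute promyelocytic leukemia line that carries the PML-RARA fusion. Of these 8 genes, 6 were among the 18625 genes of the table and all 6 passed the filter on low values; ELANE and BPI were not analysed here. The 3 control libraries came from cells given DMSO, the solvent, and the 3 treated libraries from cells given 10 μM Tan I (tanshinone I, a diterpenoid from Salvia miltiorrhiza) for 3 days, all in the same line and medium with 10% fetal bovine serum. The labels number the libraries within a group but do not say whether they came from separate cultures, so the spread between them may be technical. The comparison asks how the RNA of these granule proteins stood in treated against untreated cells. The genes were chosen on their log2 differences and control levels in these same 6 libraries, so both are a description: no p is given for them, and the counts of calls further on are not evidence for the choice. In bulk RNA, fewer cells of a type and less RNA per cell cannot be told apart.

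Primary, or azurophil, granules are the first granules formed in neutrophil development, and their proteins are transcribed mainly at the promyelocyte stage, the stage at which acute promyelocytic leukemia cells are arrested. MPO makes hypochlorous acid from hydrogen peroxide and chloride. PRTN3 (proteinase 3) and CTSG (cathepsin G) are serine proteases, and AZU1 (azurocidin) is an antimicrobial relative of theirs that has lost catalytic activity. SRGN (serglycin) is the proteoglycan core that holds basic proteins inside the granule, and LYZ (lysozyme) cleaves bacterial cell wall and is also made by monocytes and at later neutrophil stages.

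The promoters of PRTN3, AZU1 and CTSG are shown because these were the 3 of the 6 genes with a promoter in the RefSeq set used. All 3 are protease family genes, and their levels varied together between libraries. Pearson r over the 6 libraries was 0.98 for PRTN3 with AZU1, 0.93 for AZU1 with CTSG and 0.91 for PRTN3 with CTSG. After subtraction of the group means SRGN varied as closely with AZU1 (r 0.98) and CTSG (0.97). These genes also followed the main axis of difference between libraries over all genes tested, given further on. A link between their co-variation and the promoter letters was not tested. Each run is the 150 bases before the RefSeq transcription start on GRCh38.p14, written 5′ to 3′ on the gene's strand, and no promoter is printed for MPO, SRGN or LYZ. For AZU1 the RefSeq start differs from the GENCODE one. Its run lies inside the gene span given further on, which begins at 825097.
PRTN3, chr19:840849-840998, plus strand: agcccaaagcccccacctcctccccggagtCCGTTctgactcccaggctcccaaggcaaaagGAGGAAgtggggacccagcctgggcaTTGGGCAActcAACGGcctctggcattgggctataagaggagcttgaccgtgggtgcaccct
AZU1, chr19:827687-827836, plus strand: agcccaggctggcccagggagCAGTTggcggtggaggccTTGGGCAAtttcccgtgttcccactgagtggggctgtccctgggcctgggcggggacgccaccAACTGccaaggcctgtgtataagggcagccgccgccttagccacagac
CTSG, chr14:24576251-24576400, minus strand: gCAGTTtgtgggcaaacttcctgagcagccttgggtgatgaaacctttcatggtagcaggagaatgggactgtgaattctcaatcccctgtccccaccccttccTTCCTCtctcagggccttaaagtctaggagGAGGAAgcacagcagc
Capitals mark matches, on either strand, to TTNNGNAA (the C/EBP type), GAGGAA (the PU.1 type) or AACNG (the MYB type), and none of the matches overlapped another. The same 8 letters, TTGGGCAA, stood 62 to 55 bases before the start of PRTN3 and 111 to 104 bases before that of AZU1, and no TTNNGNAA match lay in the 250 bases before CTSG. GAGGAA was found in PRTN3 at 88 to 83 bases before the start and in CTSG at 46 to 41 (on the other strand) and 16 to 11. All 3 promoters held AACNG, and AZU1 held a further match at 179 to 175 bases, outside the run printed. These letters are common: in the 250 bases before the start of 35116 promoters, 33.2% held TTNNGNAA, 23.6% held GAGGAA and 70.6% held AACNG. Neither TGTGGT (the RUNX type, in 11.0% of promoters) nor TATAAA (in 10.7%) was in the 250 bases before any of the 3 genes. A match is a string of letters and not a site of binding.

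The libraries held 21502760 to 31679138 reads on the listed genes, no library was a copy of another, and values are normalized counts, that is, reads divided by the authors' size factor for the library. Libraries stood apart in a way the treatment did not follow. The first principal component (PC1) over the genes tested held 70.8% of the variance, with scores of -48.0, 41.1 and -26.7 in DMSO replicates 1 to 3 and -46.8, 8.65 and 71.6 in Tan I replicates 1 to 3, so the folds are also given below with this score as a covariate, an alternative added after the data were seen. Of 6 promyelocyte markers 5 were listed, with CD33 at 3473 to 4119 ANPEP at 18572 to 25628, CSF3R at 1738 to 2423, FUT4 at 448 to 620 and CD38 at 327 to 528 normalized counts over the 6 libraries, and KIT was not analysed here. Their log2 differences ran from -0.31 (CD38) to 0.33 (ANPEP), with a median of -0.04. Of the monocyte markers, FCGR1A had 79.3 to 143 normalized counts in DMSO and 73.3 to 117 in Tan I, and CD300E 12.1 to 21.1 and 12.7 to 37.3. Of the lymphoid markers, NKG7 had 379 to 583 in DMSO and 380 to 741 in Tan I, and CD3D 245 to 406 and 274 to 515. ALAS2, the 1 erythroid marker listed of 7, stood at 15.4 to 51.3 and 10.7 to 28.3, and the 2 megakaryocyte markers listed of 5 summed to 1263 to 1474 and 1478 to 1734, with log2 differences of 0.35 for ITGA2B and -0.74 for GP1BA. The eosinophil and basophil markers (5 of 7 listed) summed to 12400 to 14624 in DMSO and 16505 to 20526 in Tan I, most of it HDC, the histamine-forming enzyme, which alone of the list was higher in every treated library than in any control. EPX, PRG2 and PRG3 of the same list were lower in every treated library, and 3 of the 4 tested lay below 0. None of the markers named here was at 0 in any library. In limma's unadjusted test ANPEP (log2 difference 0.33), ITGA2B (0.35) and HDC (0.69) passed upward and EPX (-0.90) downward; the ANPEP call was lost under 7 of the 17 alternatives. Their part in the results below was not tested.

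MPO (ENSG00000005381, chr17:58269855-58280935, minus strand, 12 exons) had 60389, 64107 and 63267 normalized counts in DMSO replicates 1, 2 and 3 and 33279, 39450 and 37076 in Tan I replicates 1, 2 and 3. All 3 treated libraries lay below all 3 controls, with a wide gap between the groups and a small spread within each. The means were 62588 ± 1950 and 36602 ± 3112 (SD, n = 3 each), so the treated mean was 58.5% of the control mean. On the log2(normalized count + 1) scale the difference was -0.78 (SE 0.15, 95% interval -1.12 to -0.43). In reads, MPO took 0.255%, 0.244% and 0.256% of all reads on listed genes in the controls and 0.140%, 0.154% and 0.129% after Tan I. It was thus the 25th to 42nd gene by reads in the controls and the 68th to 95th in the treated libraries.

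**Figure D1:**
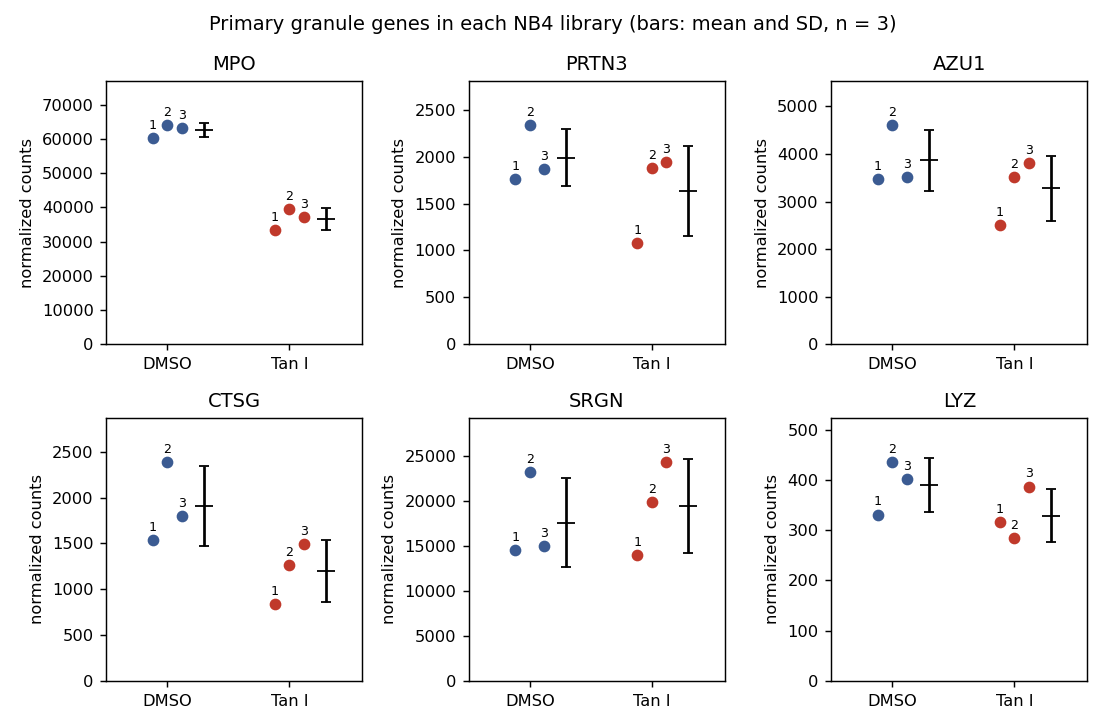
Normalized counts of MPO, PRTN3, AZU1, CTSG, SRGN and LYZ, 1 panel per gene, in the 3 DMSO and 3 Tan I libraries (points) with group mean and SD. MPO and CTSG are the 2 genes whose groups do not overlap; MPO lies between 60389 and 64107 in DMSO and between 33279 and 39450 in Tan I.

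Among the 3 serine protease family members listed, CTSG (ENSG00000100448, chr14:24573518-24576250, minus strand, 5 exons) had 1536, 2392 and 1801 normalized counts in DMSO and 839, 1263 and 1496 in Tan I. The groups did not overlap, but the lowest control and the highest treated library nearly met. Its means were 1909 ± 438 and 1199 ± 333 (SD, n = 3 each), a log2 difference of -0.69 (SE 0.25, 95% interval -1.27 to -0.11), and the treated mean was 62.8% of the control.

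PRTN3 (ENSG00000196415, chr19:840999-848175, plus strand, 5 exons) had 1767, 2340 and 1868 normalized counts in DMSO and 1083, 1877 and 1943 in Tan I. Only Tan I replicate 1 was below every control, and the groups overlapped. The log2 difference was -0.32 (SE 0.24, 95% interval -0.88 to 0.24). AZU1 (ENSG00000172232, chr19:825097-832018, plus strand, 5 exons), whose gene ends 8981 bp before that of PRTN3 on the same strand, had 3473, 4612 and 3508 in DMSO and 2505, 3522 and 3809 in Tan I. Again the first treated library was lowest and the other two lay among the controls. Its log2 difference was -0.25 (SE 0.19, 95% interval -0.70 to 0.21). Without Tan I replicate 1 the differences were -0.05 for PRTN3 and -0.06 for AZU1, while those of MPO stayed within -0.87 to -0.71 and those of CTSG within -0.87 to -0.45 over all 17 alternatives tried.

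SRGN (ENSG00000122862, chr10:69088103-69104805, plus strand, 3 exons) had 14549, 23229 and 14923 normalized counts in DMSO and 14015, 19832 and 24337 in Tan I. Its groups overlapped over nearly their whole range, with a log2 difference of 0.14 (SE 0.26, 95% interval -0.47 to 0.75). An RNA gene of the signal recognition particle type lies inside it on the same strand, so reads there are uncertain. LYZ (ENSG00000090382, chr12:69348381-69354234, plus strand, 4 exons) had 331, 436 and 401 in DMSO and 317, 284 and 387 in Tan I, which also overlapped, with a log2 difference of -0.25 (SE 0.17, 95% interval -0.65 to 0.16). An antisense long noncoding RNA overlaps LYZ, and since no strand setting is given in the sources used here, its reads cannot be told apart from those of LYZ.

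In the limma fit across all genes, 2 of the 6, MPO and CTSG, were called lower in Tan I at an unadjusted p of at most 0.05 with an absolute log2 difference of at least 0.25. Over all 16887 genes tested 2.42% were called (1.10% lower and 1.32% higher), and since the genes were chosen with this contrast in view nothing is read from the comparison. After Benjamini-Hochberg adjustment limma called 0 of the 6 and 0% of all genes, where 408 genes had passed unadjusted. edgeR on the recovered reads likewise gave 2 unadjusted calls among the 6, where 2.42% of all genes were called and 1.05% called lower, and 0 adjusted calls there (0% of all genes). DESeq2 gave 2 unadjusted calls (2.49% of all genes, 0.971% lower) and 1 adjusted, MPO, where 0.107% of 14922 genes were called and 0.0268% called lower. The CTSG call was lost without DMSO replicate 2, without DMSO replicate 3 or without Tan I replicate 1. The median log2 difference of the 6 genes was -0.28, against -0.00 for all genes tested. The groups did not overlap for 2 of the 6, both lower, against 7.89% of all genes tested (3.97% lower). When each library was scaled to the same total this held for 5 of the 6, all but SRGN and all lower, against 8.30% of all genes (4.84% lower), and the median difference of all genes moved to -0.06.

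**Figure D2:**
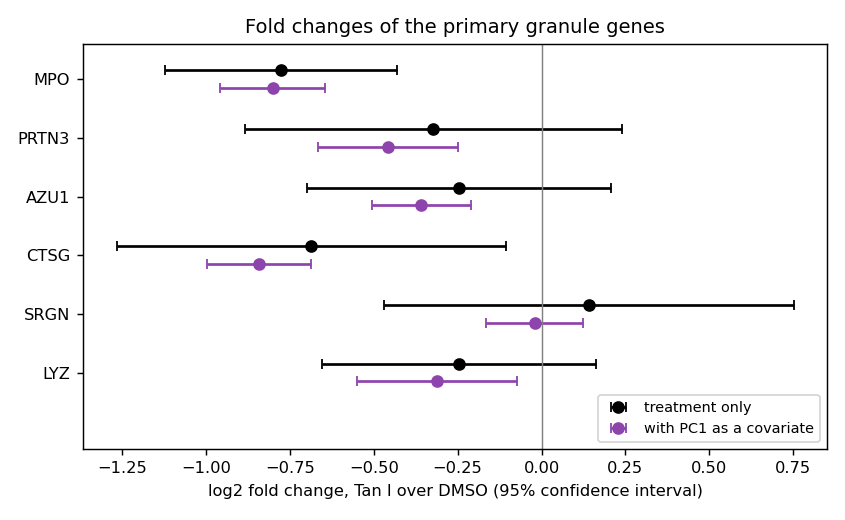
Log2 difference of Tan I minus DMSO for each of the 6 genes with its 95% interval, from the limma fit with treatment only (black) and with PC1 as a covariate (purple). MPO and CTSG lie furthest below 0 in both fits, and SRGN lies nearest to 0 in both. The genes were chosen on this contrast, so the intervals describe and do not test. PC1 comes from the same libraries, so the second fit is not a separate line of evidence.

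Part of the spread within groups lay along PC1. SRGN followed it closely, with r of 0.98 over the 6 libraries, and the other genes less so, with r of 0.69 for AZU1, 0.63 for PRTN3, 0.45 for CTSG, 0.45 for LYZ and -0.13 for MPO. After subtraction of the group means, r was 0.98 for SRGN, 0.97 for CTSG, 0.95 for AZU1, 0.88 for PRTN3, 0.75 for LYZ and 0.62 for MPO. These are descriptions over 6 libraries, and the genes themselves enter PC1. With PC1 as a covariate the log2 differences were -0.84 (SE 0.072) for CTSG, -0.80 (SE 0.073) for MPO, -0.46 (SE 0.098) for PRTN3, -0.36 (SE 0.069) for AZU1, -0.31 (SE 0.11) for LYZ and -0.02 (SE 0.068) for SRGN. In that fit 5 of the 6 were called unadjusted, all lower, where 8.86% of all genes were called and 4.61% called lower, and 4 after adjustment, where 1.15% were called and 0.367% called lower. SRGN was in neither count, and LYZ was in the first.

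**Figure D3:**
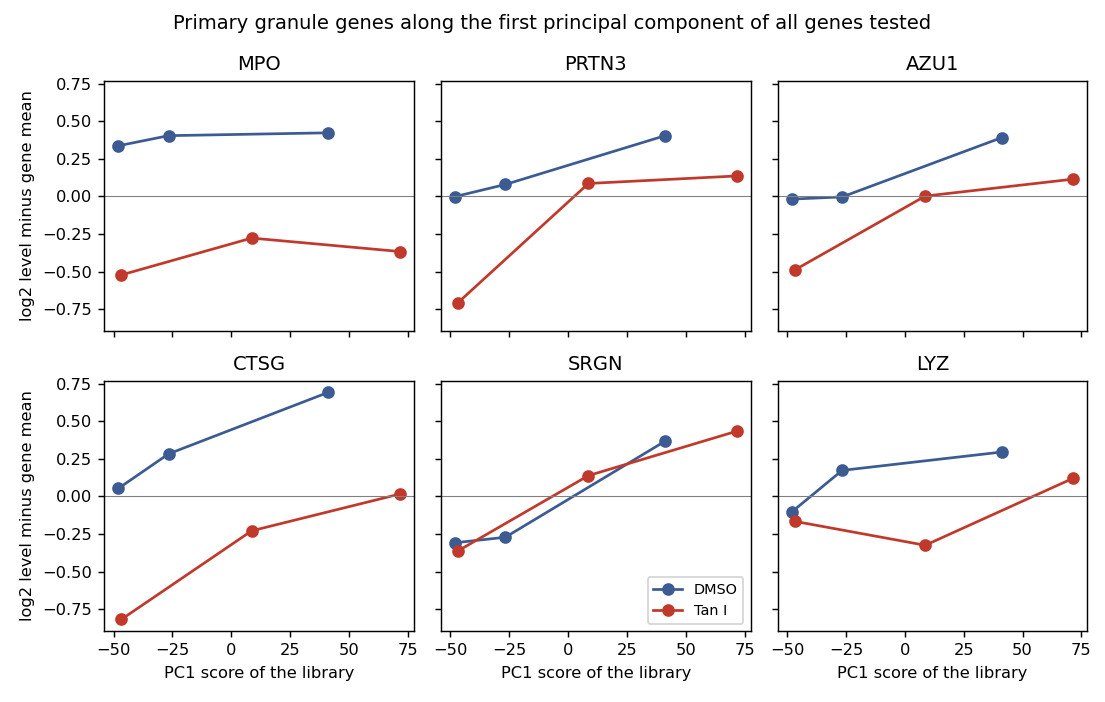
Log2 level of each of the 6 genes minus its mean over the libraries, against the PC1 score of the library, with DMSO and Tan I libraries joined by lines. The MPO lines run apart along the whole axis, those of CTSG rise with the Tan I line below, and those of SRGN run together.

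Ratios between granule genes within a library do not depend on its scaling. CTSG over SRGN was 0.106, 0.103 and 0.121 in DMSO and 0.0598, 0.0637 and 0.0615 in Tan I, averaging 0.110 ± 0.00957 and 0.0617 ± 0.00192 (SD over the 3 libraries). MPO over SRGN was 4.15, 2.76 and 4.24 in DMSO and 2.37, 1.99 and 1.52 in Tan I. Both ratios were lower in every treated library than in any control, as were MPO over AZU1 (17.4, 13.9 and 18.0 against 13.3, 11.2 and 9.73), PRTN3 over SRGN and AZU1 over SRGN. The same held for MPO over LYZ and CTSG over LYZ, while PRTN3 over CTSG was higher in every treated library. PRTN3, AZU1 and SRGN over LYZ overlapped. The genes were chosen on this contrast, and how often ratios of other gene pairs stand apart was not counted. SRGN, the denominator of several ratios, followed PC1 (r 0.98). The groups overlapped for MPO over PRTN3 (34.2, 27.4 and 33.9 against 30.7, 21.0 and 19.1). They also overlapped for MPO over CTSG (39.3, 26.8 and 35.1 against 39.7, 31.2 and 24.8). CTSG was also lower relative to its relatives, with AZU1 over CTSG at 2.26, 1.93 and 1.95 in DMSO and 2.99, 2.79 and 2.55 in Tan I. PRTN3 over AZU1, the pair that lie side by side on chromosome 19, was 0.509, 0.507 and 0.533 in DMSO and 0.432, 0.533 and 0.510 in Tan I, and these overlapped. Of the reads on listed genes, the 6 genes together took 0.354% ± 0.0132 under DMSO and 0.240% ± 0.0200 under Tan I (SD, n = 3 per group). MPO alone took 0.252% ± 0.00667 under DMSO and 0.141% ± 0.0126 under Tan I, so most of the fall in the joint share lay in MPO. MPO made up 71.1% ± 4.43 of the reads of the 6 genes in DMSO and 59.1% ± 5.15 in Tan I.

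At baseline, levels were compared per kilobase of exon (the union of all exons in GENCODE release 44). In DMSO, SRGN stood at 14435 ± 4032 normalized counts per kilobase and MPO at 14138 ± 440 (SD, n = 3 each), at places 64 and 65 of 18550 genes. These 2 did not differ beyond their spread, and SRGN was above MPO in 1 of 3 libraries. AZU1 (2169 ± 363, place 351), PRTN3 (1799 ± 276, place 444) and CTSG (1396 ± 320, place 622) followed, in this order in each of the 3 libraries, although the ranges of neighbours overlapped. LYZ was lowest at 226 ± 31.1, place 4427, below CTSG in every library. In Tan I the places were 61 for SRGN, 117 for MPO, 496 for AZU1, 639 for PRTN3, 1144 for CTSG and 5130 for LYZ. The order depends on the length used: per kilobase of the canonical transcript MPO (19461 ± 606) came before SRGN, and CTSG (2089 ± 479) before PRTN3 (2018 ± 310).

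**Figure D4:**
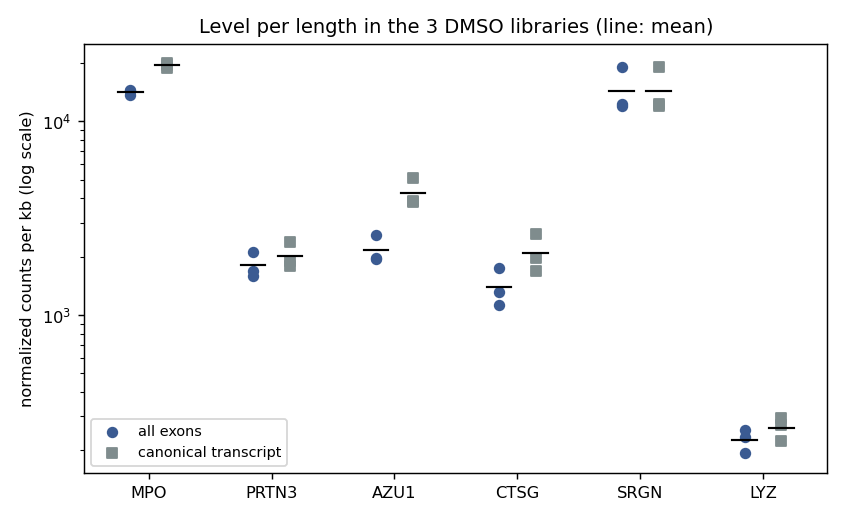
Normalized counts per kilobase of the 6 genes in the 3 DMSO libraries, on a log axis, with libraries as points and their mean as a line. Circles use the length of all exons and squares that of the canonical transcript. SRGN and MPO lie highest and LYZ, at 226 on average per kilobase of all exons, lies lowest.

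Lists of genes around the granule program were counted in the same limma fit. A gene is said to rise or fall where it passed the unadjusted threshold. None passed after adjustment: limma's adjusted p was 0.996 for EPX and 0.999 for each of the others named. Of 9 other primary granule proteins 6 were tested, and 1 fell, the defensin DEFA4, which had 30.8, 22.2 and 23.4 normalized counts in DMSO and 6.84, 13.7 and 17.3 in Tan I (log2 difference -1.03, SE 0.41). That call rests on 7 to 33 reads per library and was lost under 8 of the 16 alternatives that could test it. The list's median difference was -0.18. The others included RNASE2 (-0.19), an eosinophil and neutrophil ribonuclease, and PRSS57 (0.02), the fourth active neutrophil serine protease. Of 12 genes for protease maturation and inhibition 9 were tested and 0 were called, with a median of 0.15; CTSC, the dipeptidase that activates granule serine proteases, differed by 0.15, and the chaperones of MPO folding, CALR and CANX, by 0.22 and 0.06. Of 13 genes for granule sorting and congenital neutropenia 13 were tested and 0 called (median 0.06), led in level by WAS (0.32), HAX1 (0.24) and AP3D1 (0.01).

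Among genes for proteins of the later specific and gelatinase granules 3 were called, all higher, where 1.32% of all genes were called higher. The list was chosen with earlier results of these data known, so nothing is read from that comparison. Of 19 such genes 9 were tested and 10 were not analysed here. MMP25, a membrane-anchored metalloproteinase, rose from 306 ± 16.4 to 499 ± 35.5 normalized counts (log2 difference 0.70, SE 0.13). MMP9, gelatinase B, rose from 687 ± 64.2 to 1036 ± 171 (0.58, SE 0.15), and CHI3L1, a chitinase-like protein, from 244 ± 17.0 to 357 ± 33.8 (0.55, SE 0.14), with n = 3 in each group and the spread as SD. The other 6 were not called, among them CAMP (-0.005), CYBB (0.01) and ITGAM (-0.10). Of the 9 tested, 7 lay above 0 and 2 below, and the list's median was 0.29.

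Of 19 transcription factors linked to granule genes 18 were tested and 2 fell, with a list median of 0.06. MYB, which binds the promoters of early granule genes, had 3299, 3825 and 3150 normalized counts in DMSO and 2801, 2771 and 2653 in Tan I (log2 difference -0.32, SE 0.12). GFI1, a repressor needed for neutrophil development, had 3366, 3649 and 3091 in DMSO and 2868, 2583 and 2568 in Tan I (-0.33, SE 0.11). For both, all treated libraries lay below all controls. The MYB call was lost under 5 and the GFI1 call under 4 of the 17 alternatives. The C/EBP factors CEBPA (0.11) and CEBPE (-0.12) and the PU.1 gene SPI1 (0.36) were not called.

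Of 21 relatives by family or locus 10 were tested and 1 fell. EPX, the eosinophil peroxidase and closest relative of MPO on chromosome 17, had 2568, 2904 and 2712 normalized counts in DMSO and 1264, 1533 and 1614 in Tan I. Its treated libraries were all below its controls, with a log2 difference of -0.90 (SE 0.13), and it passed the adjusted threshold in DESeq2 (adjusted p = 6.13e-07). EPX lies 64681 bp from MPO, and LPO, lactoperoxidase, 1337 bp from it, at 21.4 ± 5.82 and 13.5 ± 4.80 normalized counts (-0.65, not called). Of the 7 tested neighbours within 100 kb of MPO, TSPOAP1 was the other one called (600 ± 35.0 to 465 ± 81.0, -0.38, SE 0.16). Over all genes tested 2.42% were called, 1.10% lower. The differences of all 7 lay below 0, from -0.90 (EPX) to -0.10 (MIR142HG). TSPOAP1-AS1 (-0.51) was lower in every treated library but was not called. None of the 9 tested genes within 100 kb of AZU1 was called, among them CFD (-0.30), the complement protease, and PLPPR3 (-0.34), nor was any of the 4 near SRGN or the 4 near LYZ.

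**Figure D5:**
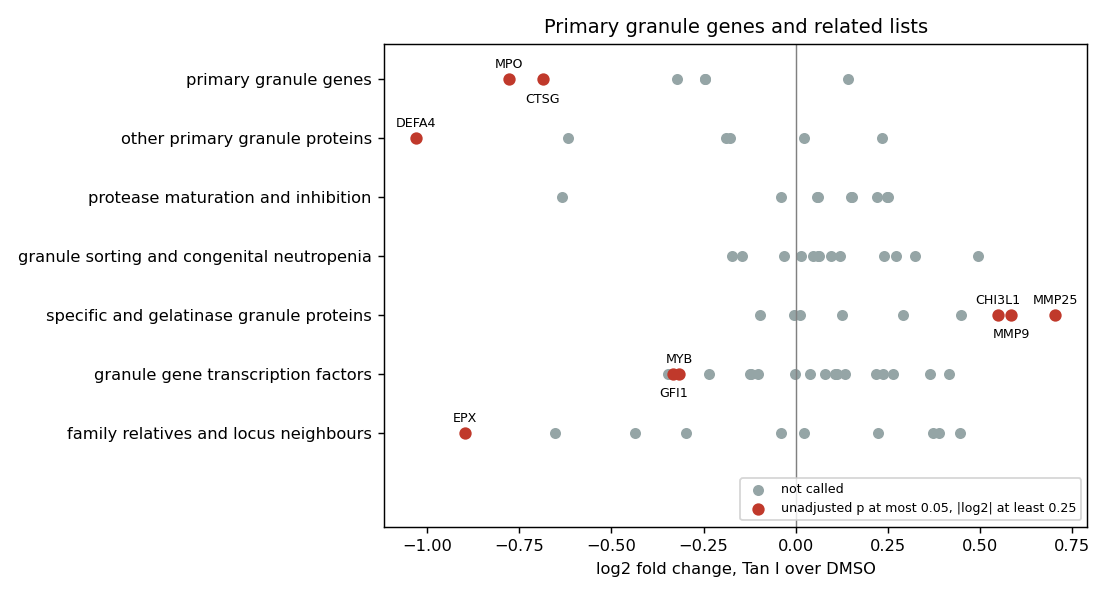
Log2 difference of Tan I minus DMSO for each tested gene of the 6 primary granule genes and 6 related lists, 1 row per list, with genes called at an unadjusted p in red. The called genes lie left of 0 in the rows of primary granule genes, other primary granule proteins, transcription factors and family relatives, and right of 0 in the row of specific and gelatinase granule proteins.

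Among the 7282 genes averaging 500 normalized counts or more, those whose log2 levels ran most like the mean of the 6 granule genes over the 6 libraries were MRAS (Pearson r 0.997), SDC1 (0.988), BNIP3L (0.984), TCF3 (0.978) and FCGRT (0.977). Those that ran most opposite were THUMPD3-AS1 (-0.997), ACTN1 (-0.987), LMAN1 (-0.986), NAA35 (-0.985) and ZNF451 (-0.982). The mean log2 level that they were set against was 11.87, 12.31 and 11.99 in DMSO and 11.37, 11.78 and 11.95 in Tan I, so DMSO replicate 2 was highest and Tan I replicate 1 lowest. These 10 genes were picked as the extremes over 6 points.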

How the data were processed

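RNA-seq covered 6 libraries of NB4 cells, 3 given the solvent DMSO and 3 given Tan I (10 μM, 3 days). The authors used STAR to place the read pairs on GRCh38, dropped reads with several positions, counted the rest by gene in featureCounts and normalized with DESeq2; versions are not given in the sources used here. The deposited signal values are normalized counts per gene, and 100% of them were whole reads within a tolerance of 0.001 once the library's size factor was taken out. The deposited columns of the authors' own comparison (log2 fold change, its standard error, a Wald score, and p-values) were not used.

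Groups were taken from the sample labels. Differences were tested with limma 3.58.1 in R 4.3.3 (lmFit, and eBayes with the trend, two-sided) on log2(normalized count + 1) for the 16887 genes averaging 10 or more, adjusted by Benjamini-Hochberg; 1738 genes fell below the minimum. Fold changes on this scale understate those of low genes. Calls needed p of at most 0.05 and an absolute log2 difference of at least 0.25. Since reads were recovered, edgeR 4.0.16 (quasi-likelihood, TMM) and DESeq2 1.42.0 were run on them as alternatives, beside pseudocounts of 0.1 and 10, no filter, a mean of at least 50, rescaling to the same total, quantile normalization, no trend, a replicate block, each library left out and, added after seeing the data, PC1 as a covariate. The fits were tested on simulated data. Read totals of 21502760 to 31679138 limit low genes by counting error. Positions are from GENCODE release 44 and promoters from RefSeq GRCh38.p14.

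The granule genes and the gene lists were chosen with earlier results of these data known. Named genes were all 8 granule genes, each gene of a list past a threshold or otherwise its 3 highest, and the 5 genes most and least like the granule genes; CD33, CSF3R, CD38, FUT4, GP1BA, RNASE2, PRSS57, CAMP, CYBB, ITGAM, CEBPA, CEBPE, SPI1, PRG2, PRG3, LPO and the other neighbours were added after their values were seen. Some markers of the monocyte and lymphoid lists are not reported here, so those lists are given by single genes and not by their sums.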

Additional observations from a re-analysis of the deposited data

How the results depend on the processing

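Of the 6 granule genes 5 kept the direction of their log2 difference over 17 alternatives, and SRGN, whose difference was small, ran from -0.04 to 0.36; PRTN3 ran from -0.47 to -0.05, AZU1 from -0.37 to -0.06 and LYZ from -0.37 to -0.14. With PC1 as a covariate, 1496 genes passed unadjusted and 194 adjusted, with 5 and 4 of the granule genes and 20 and 10 of the 84 related genes tested. DESeq2 gave 16 adjusted calls over all genes, 1 among the granule genes (MPO) and 3 among the related genes (EPX, HDC and MMP25). Leaving out each library in turn gave 160 (without Tan I replicate 2) to 1496 (without Tan I replicate 1) unadjusted calls over all genes, with 180 without DMSO replicate 1, 201 without DMSO replicate 3 and 271 without Tan I replicate 3, and 0 adjusted calls each time. It gave 1 to 2 calls among the granule genes and 6 to 14 among the related genes. The median of the granule genes ran from -0.42 to -0.14, and 0 to 2 places in the baseline order changed. Rescaling to the same total left 5 granule genes (8.30% of all genes) without overlap and turned the split of calls from 223 higher and 185 lower (54.7% higher) to 188 and 250 (42.9% higher). Leaving mitochondrially encoded genes out of the total gave a share of 0.373% in DMSO and 0.252% in Tan I, and canonical transcript lengths moved 4 places. The cause of these moves was not tested. Libraries numbered 1 deviated together (correlation 0.75), but those numbered 2 and 3 did not (-0.09 and -0.45). DMSO replicate 2 and Tan I replicate 3 also deviated together (0.76), so libraries shared structure across treatment that did not follow the numbers. The numbers were therefore not taken as pairs. The replicate block goes by the numbers and does not take up that structure. With the replicate block 348 genes were called, 2 of the granule genes and 9 of the related genes, and 0 adjusted.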
